A study of Homo sapiens with 6 samples.

Results

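Receptor tyrosine kinases are membrane proteins that pair up when a growth factor binds and then phosphorylate each other on tyrosines. A tyrosine in the activation loop of the kinase domain raises kinase activity. Tyrosines in the juxtamembrane stretch, the kinase insert and the tail become docking sites for signalling proteins such as phospholipase C gamma, the PI3-kinase subunit p85 and Src-family kinases. The receptors described here are FLT3 and Kit, which carry growth signals in blood cell progenitors, VEGFR-1 (gene FLT1), a receptor for VEGF through which monocytes migrate, the fibroblast growth factor receptor FGFR3, the insulin-like growth factor receptor IGF1R and the ephrin receptor EphA1.

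They were represented by all printed peptides listed under these 6 protein names, which came to 9 of the 300 peptides on the array. FLT3 had a peptide at Y589/91 and another at Y597/9, Kit one at Y721 and one at S821, FGFR3 one at Y724 and one at Y760, and VEGFR-1, IGF1R and EphA1 had 1 peptide each, at Y1169, Y1166 and Y781. The choice used names and no measured value, but it was made with earlier results of these data known. In 8 of the 9 the listed residue was a tyrosine. The peptides of a receptor share a protein but are separate probes, and their levels were not set against each other.

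The samples were lysates of THP-1, a human line of monocytic leukaemia cells, here turned into adherent macrophage-like cells with the phorbol ester PMA for 24 hr and then rested for 24 hr. These steps were shared by all 3 groups. Cells received 20 ng/ml of recombinant IL-32γ for 15 min (IL-32), the same dose and time of IL-17A/F (IL-17), or no cytokine (unstimulated), with 2 arrays per group from 2 independent experiments. The titles number biological replicates, and that number was taken here as the experiment. No receptor ligand was added as a treatment, and the arrays give no marker by which the macrophage state could be checked. Each lysate was left on a peptide array, and the phosphate added to printed peptides was then read by a fluorescent phosphoprotein stain, so a value reflects whatever kinase in the lysate acts on that peptide and is not the phosphorylation or the amount of the receptor itself.

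Signal was moderate on every array. Median foreground over local background ranged from 1.16 to 1.34 per array, and between 26.1% and 35.4% of the 900 spots did not reach their local background. The brightest spot of any array read 64389. Local background was uneven within arrays: on the IL-17 array of experiment 1 its median was 7199 over the first listed spots of all peptides and 30552.5 over the third.

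The receptor peptides fell into a bright set and a dark pair. For 7 of the 9 all 18 spots, 3 on each of 6 arrays, were brighter than their local background; the same held for 15 of 18 peptides from the 10 other receptor tyrosine kinases on the array and for 158 of all 298 human peptides (53.0%). The other 2 were the Kit peptides. Kit Y721, a docking site for p85 in the kinase insert, exceeded background in 2 of 18 spots, and Kit S821, in the kinase domain, in 1 of 18. Mean foreground of both lay below mean background on all 6 arrays, so they have no fold, and their levels are not read further.

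**Figure D1:**
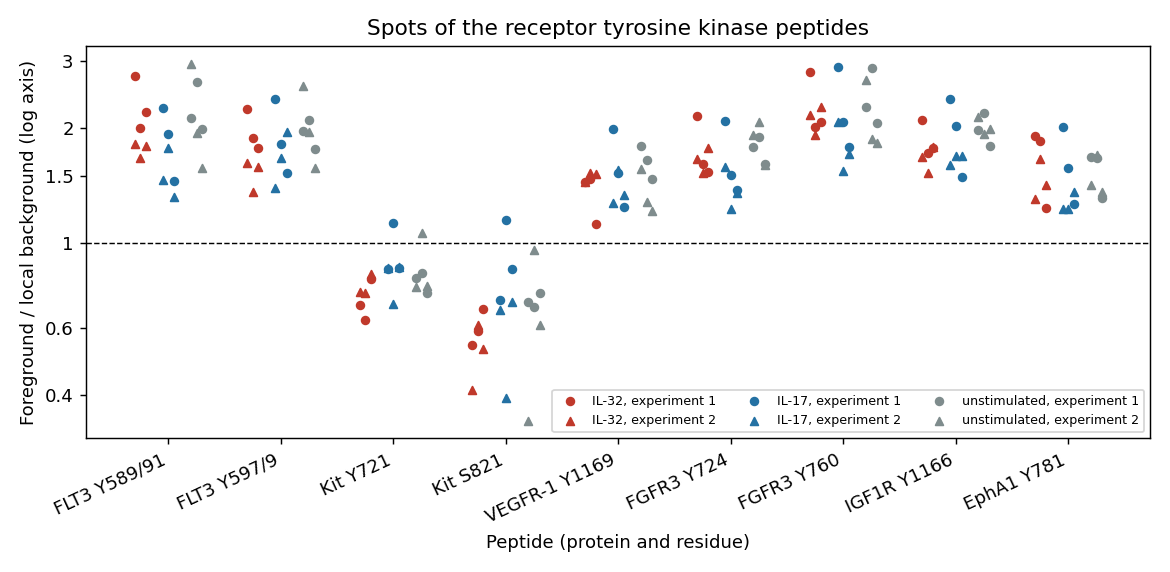
Foreground over local background (log axis) of each of the 18 spots of the 9 receptor peptides, by group (colour) and experiment (circle, triangle), with the dashed line at equality. The 7 peptides of FLT3, VEGFR-1, FGFR3, IGF1R and EphA1 lie above the line in every spot, and the Kit peptides lie below it in all but 3 spots.

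The spots of a peptide spread widely. Their ratios of foreground to background ranged from 1.32 to 2.96 for FLT3 Y589/91, from 1.36 to 2.59 for FLT3 Y597/9 and from 1.13 to 1.99 for VEGFR-1 Y1169. They ranged from 1.23 to 2.15 for FGFR3 Y724, from 1.55 to 2.89 for FGFR3 Y760, from 1.49 to 2.38 for IGF1R Y1166 and from 1.23 to 2.01 for EphA1 Y781. For the Kit peptides the ranges were 0.63 to 1.13 at Y721 and 0.34 to 1.15 at S821. The third listed VEGFR-1 spot, at 60372, was the brightest of the IL-17 array of experiment 1, but its local background was 48397. The first listed VEGFR-1 spot of that array read 22684 over 11412. An IGF1R spot, at 57693 over a background of 34168, was the brightest of the IL-17 array of experiment 2.

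Levels below are log2 intensities after background correction and quantile normalization, each the mean of 3 spots, and differences are tested on that scale with limma's moderated test over all 298 human peptides. None of the 9 receptor peptides passed an adjusted p of 0.05 in any comparison, against 0 of 298 peptides over the array (0%) for IL-32 and unstimulated cells, 0 of 298 (0%) for IL-17 and unstimulated cells, and 0 of 298 (0%) for IL-32 and IL-17. The limma adjusted p was 0.996 for each of them with IL-32, 0.997 with IL-17 and 0.997 between the cytokines. At an unadjusted p under 0.05 limma counted 0 of the 9 in each comparison, against 4 (1.34%), 0 (0%) and 4 (1.34%) of the 298. At the criteria the study states, a change over 1.5-fold with p under 0.06, the counts were also 0 of 9 and 0 of 298 in each. Here the criteria were applied to the corrected scale with limma's p. On the authors' deposited table of processed signal, 3 of the 298 met them for IL-32 and 1 for IL-17 against unstimulated cells.

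FLT3 is the receptor in this group best known from acute myeloid leukaemia, where duplications in its juxtamembrane stretch keep it active; both printed FLT3 peptides come from that stretch, which binds Src-family kinases and STAT5 when phosphorylated. The Y589/91 peptide had log2 levels of 12.43 and 12.37 on the IL-32 arrays of experiments 1 and 2, of 11.97 and 12.15 on the IL-17 arrays, and of 12.40 and 11.99 on the unstimulated arrays. Both IL-32 arrays lay above both IL-17 arrays, and the unstimulated arrays spanned nearly the whole range. In the authors' deposited table, whose linear scale is background-subtracted signal divided by an array constant of unstated basis (column medians from 0.466 to 0.553), the same peptide read 1.63 and 1.41 with IL-32, 1.00 and 1.31 with IL-17, and 1.44 and 1.07 in unstimulated cells.

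The log2 difference of FLT3 Y589/91 between IL-32 and IL-17 was 0.34 ± 0.15 (SE of the fit, 95% interval -0.035 to 0.71), with 0.46 in experiment 1 and 0.22 in experiment 2. It had the smallest unadjusted p of the 9 peptides there (0.068, limma, adjusted p = 0.997). With each spot position normalized by itself, the first and the third listed spot gave 0.37 and 0.68, and the second gave -0.041. Against unstimulated cells the difference was 0.20 ± 0.15 with IL-32, of which experiment 2 gave 0.39 and experiment 1 gave 0.022, and -0.13 ± 0.15 with IL-17, with -0.43 and 0.17. Without the unstimulated array of experiment 2 the IL-32 value was -0.0067, and without that of experiment 1 the IL-17 value was 0.078.

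The neighbouring FLT3 peptide at Y597/9 did not show this order. Its levels were 12.04 and 12.00 with IL-32, 11.96 and 12.25 with IL-17, and 12.04 and 11.95 in unstimulated cells. All 3 groups overlapped, with the IL-17 array of experiment 2 highest. The log2 differences were 0.028 ± 0.11 for IL-32 and 0.11 ± 0.11 for IL-17 against unstimulated cells, and -0.084 ± 0.11 for IL-32 against IL-17. Whether the 2 FLT3 peptides differ in response was not tested.

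VEGFR-1 Y1169, a tail site known to bind phospholipase C gamma, had levels of 11.81 and 11.98 with IL-32, 12.16 and 11.93 with IL-17, and 11.95 and 11.79 in unstimulated cells. The IL-17 array of experiment 1 was the highest, and every pair of groups overlapped. With IL-17 the log2 difference from unstimulated cells was 0.18 ± 0.12 (95% interval -0.11 to 0.46), at 0.21 and 0.14 in the 2 experiments, so VEGFR-1 was the only bright receptor peptide above its unstimulated array in both experiments after IL-17. That difference was 0.063 without the IL-17 array of experiment 1 and 0.31 without that of experiment 2, and 0.0997 without the unstimulated array of experiment 2. With IL-32 the difference was 0.027 ± 0.12, made up of -0.13 and 0.19. The first listed spot alone gave -0.19 for IL-17 and -0.40 for IL-32.

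FGFR3 Y724, in the kinase domain, gave the closest replicates of the 9 peptides. Its levels were 12.02 and 12.01 with IL-32, 11.97 and 11.95 with IL-17, and 12.04 and 12.05 in unstimulated cells. The 3 groups did not overlap, in the order IL-17, IL-32, unstimulated from low to high, although the whole range over 6 arrays was 0.095. The log2 difference was -0.030 ± 0.067 for IL-32 and -0.085 ± 0.067 for IL-17 against unstimulated cells, and 0.054 ± 0.067 for IL-32 against IL-17. The SD of its replicates within groups was 0.0072; the fit's larger standard error includes spread estimated over all peptides.

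The deposited table of the authors gave FGFR3 Y724 the same order, with 1.08 and 1.03 for IL-32, 1.00 and 1.01 for IL-17, and 1.12 and 1.13 for unstimulated cells. On that table the log2 difference was -0.16 for IL-17 and -0.092 for IL-32, with a limma adjusted p of 1 for both and an unadjusted p of 0.0042 for IL-17 and 0.024 for IL-32. The mean of 3 spots hid a spread between them: the spots differed by an SD of 0.12 to 0.38 on the log2 scale within an array, and the third spot alone gave 0.077 for IL-17 and 0.069 for IL-32.

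FGFR3 Y760, the tail site that recruits phospholipase C gamma, varied most. It read 12.65 and 12.80 with IL-32, 12.77 and 12.70 with IL-17, and 13.04 and 12.31 in unstimulated cells. The 4 cytokine arrays lay between the unstimulated arrays, which were 0.73 apart. The log2 differences were therefore of opposite sign in the experiments: -0.39 and 0.50 for IL-32, which fitted as 0.055 ± 0.23, and -0.27 and 0.39 for IL-17, which fitted as 0.060 ± 0.23. Between the cytokines the difference was -0.0052 ± 0.23, with a 95% interval from -0.57 to 0.56. Without the unstimulated array of experiment 2 the differences were -0.29 for IL-32 and -0.28 for IL-17, and without that of experiment 1 they were 0.44 for both.

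IGF1R Y1166 lies in the activation loop, and its phosphorylation is part of switching the kinase on. The peptide read 12.12 and 12.04 with IL-32, 12.15 and 12.53 with IL-17, and 12.26 and 11.95 in unstimulated cells. The IL-17 array of experiment 2 stood highest, and both IL-17 arrays lay above both IL-32 arrays. IL-32 against IL-17 gave a log2 difference of -0.25 ± 0.16 (95% interval -0.64 to 0.14), almost all from experiment 2 with -0.48, against -0.027 in experiment 1. Against unstimulated cells IL-17 gave 0.23 ± 0.16, with -0.11 and 0.57, and IL-32 gave -0.019 ± 0.16. On the high array, the second listed spot read 57693 over a background of 34168, while the others read 28908 over 17990 and 22361 over 13222; when the 3 spots were summarised by their median, the IL-17 difference was -0.031.

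EphA1 Y781, in the kinase domain of an ephrin receptor, read 12.03 and 12.02 with IL-32, 11.97 and 11.69 with IL-17, and 11.77 and 11.85 in unstimulated cells. Both IL-32 arrays lay above all 4 others. The log2 difference of IL-32 from unstimulated cells was 0.22 ± 0.11 (95% interval -0.047 to 0.48), at 0.26 and 0.17 in the 2 experiments; its unadjusted p of 0.090 was the smallest of the 9 peptides there (limma, adjusted p = 0.996). Between IL-32 and IL-17 it was 0.20 ± 0.11, and for IL-17 against unstimulated cells 0.021 ± 0.11, with 0.20 and -0.16. The value between the cytokines was 0.056 without the IL-17 array of experiment 2 and 0.34 without that of experiment 1.

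The EphA1 value with IL-32 differed between the 3 printed spots. The second listed spot read 40201 over a background of 21727 and 52427 over 31541 on the IL-32 arrays of experiments 1 and 2, against 28165 over 16853 and 39854 over 23397 on the unstimulated arrays. With each spot position normalized by itself, the second spot gave a log2 difference of 1.01, the first -0.099 and the third -0.078. Because of that separate normalization, these values are not parts of the difference of the mean. With the median of the spots the difference was -0.024.

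**Figure D2:**
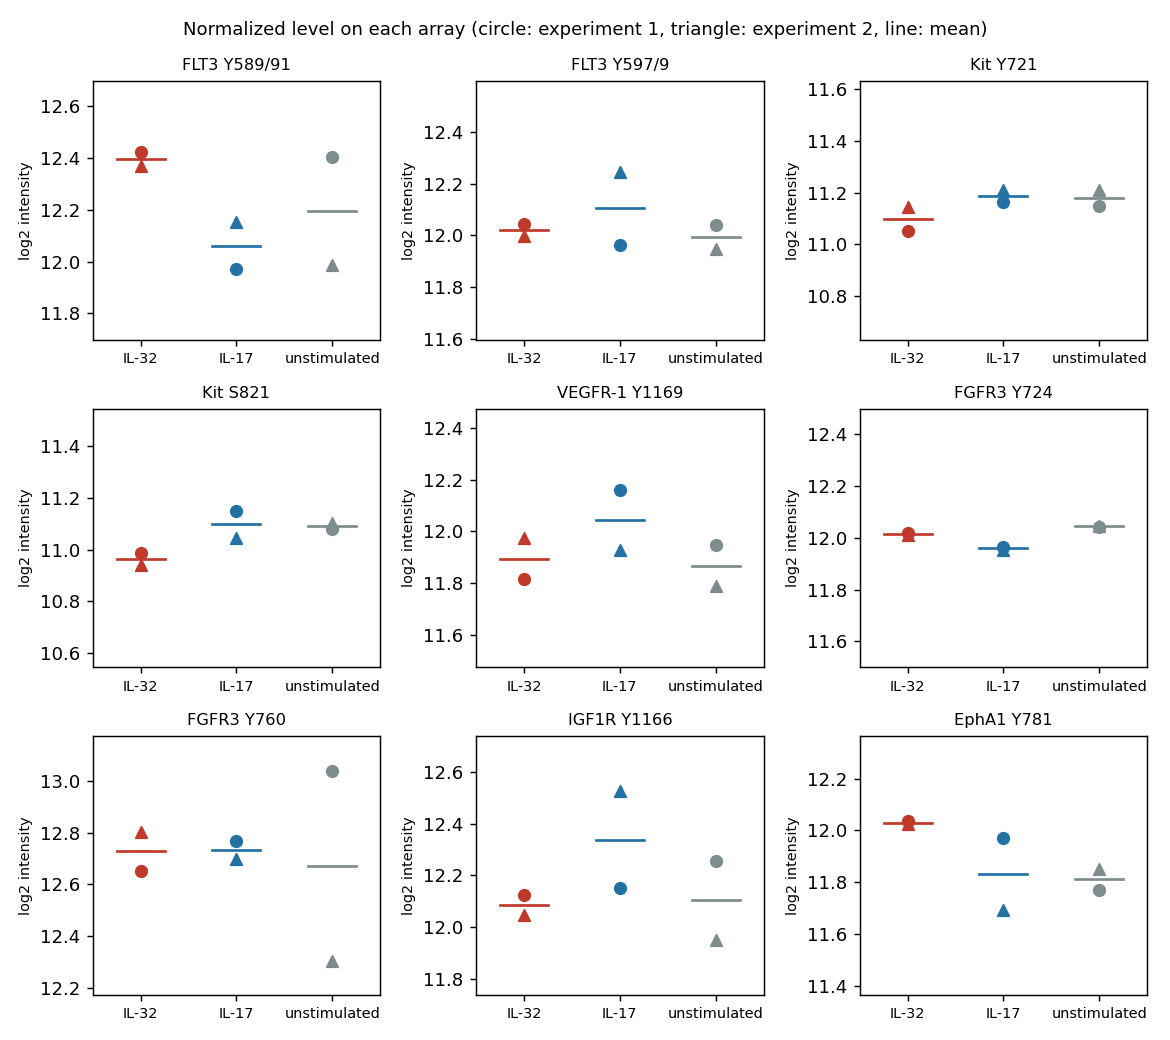
Normalized log2 intensity of each receptor peptide on each array, 1 panel per peptide with axes of equal length, and the mean of each group as a line. For IL-32 against IL-17 the groups separate for EphA1 Y781 and FLT3 Y589/91 (IL-32 higher), for IGF1R Y1166 (IL-32 lower) and, by little, for FGFR3 Y724 (IL-32 higher), and FGFR3 Y760 has its unstimulated arrays at both ends.

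The median difference of the receptor peptides lay close to 0 in each comparison, and no test was made of it. With IL-32, 5 of 9 were higher and 4 lower than in unstimulated cells, with a median log2 difference of 0.027, against a median of -0.0016 over all 298 peptides and -0.0081 over the 97 other tyrosine peptides. With IL-17, 7 were higher and 2 lower, with a median of 0.021, against 0.0031 over all peptides and 0.0084 over the other tyrosine peptides. For IL-32 against IL-17, 3 were higher and 6 lower, with a median of -0.084, against -0.0021 over all. The Kit peptides are in these counts although they are below background; over the other 7 the medians were 0.028, 0.060 and -0.0052, with 5 higher and 2 lower for IL-32, 5 and 2 for IL-17, and 3 and 4 between the cytokines. Both cytokine comparisons use the same unstimulated arrays, so their counts are not independent.

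Groups that did not overlap were counted as a description. With IL-32 this held for 4 of the 9 peptides, but 2 of them were the Kit peptides below background; of the 7 bright ones it held for 2, EphA1 Y781 higher and FGFR3 Y724 lower, against 24.5% of all 298 peptides, made up of 12.8% higher and 11.7% lower. With IL-17 it held for 1 of 9, FGFR3 Y724 lower, against 17.1% of all, made up of 8.05% higher and 9.06% lower. Between IL-32 and IL-17 it held for 6 of 9, again with both Kit peptides among them, and for 4 of the 7 bright ones, with FLT3 Y589/91, EphA1 Y781 and FGFR3 Y724 higher and IGF1R Y1166 lower, against 22.1% of all, made up of 12.8% higher and 9.4% lower. Both experiments had the same sign for 6 of 9 with IL-32, 3 of 9 with IL-17 and 6 of 9 between the cytokines, against 38.6%, 38.6% and 47% of all peptides. Over the 7 bright peptides these counts were 4, 2 and 4.

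**Figure D3:**
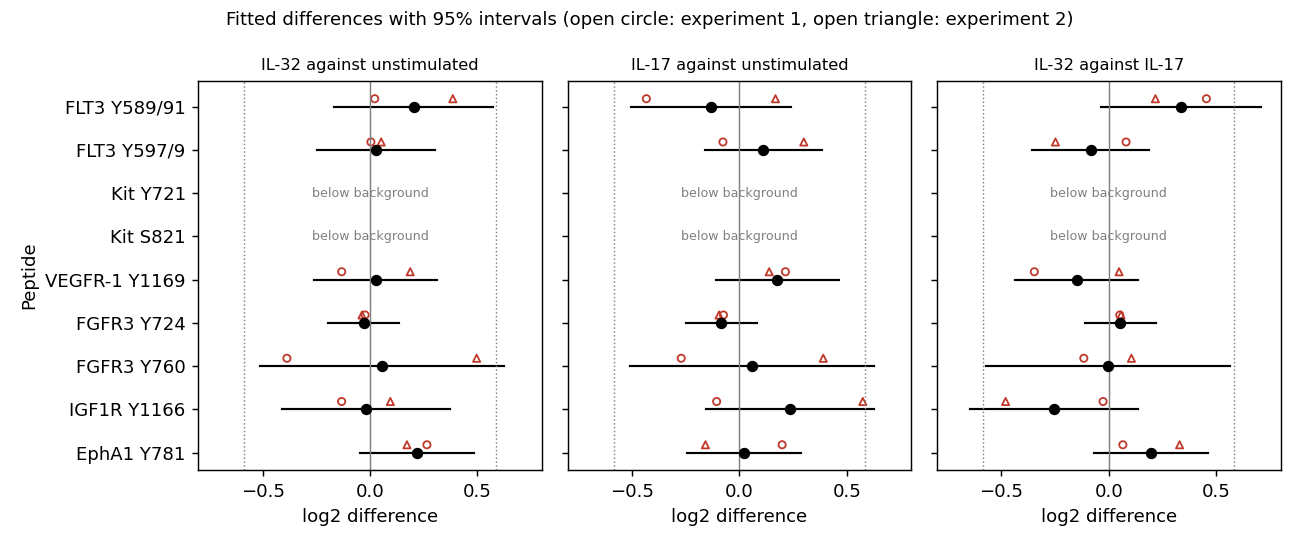
Fitted log2 difference of each bright receptor peptide (filled point) with its 95% interval and the difference in each experiment (open symbols), for the 3 comparisons; dotted lines mark a 1.5-fold change. Every interval includes 0, and FGFR3 Y760 and IGF1R Y1166 have the widest intervals of the 7.

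The precision differed between receptors. Of the 7 bright peptides, the 95% interval stayed inside 1.5-fold in either direction for 6 with IL-32, 5 with IL-17 and 5 between the cytokines. FGFR3 Y760 reached past it in both comparisons with unstimulated cells, IGF1R Y1166 with IL-17 and between the cytokines, and FLT3 Y589/91 between the cytokines. These bounds hold for the corrected scale, which compresses changes in signal, for bright peptides too. On the unstimulated array of experiment 1, FLT3 Y589/91 had a mean foreground minus background of 20611 and a level of 12.40. Kit S821, at -5631.3, still had a level of 11.08. The bounds also depend on the processing. With plain subtraction the SE for IL-32 against unstimulated cells was 0.257 for EphA1 Y781 (main settings 0.107) and 0.314 for VEGFR-1 Y1169 (0.116). For FGFR3 Y724 it was smaller, at 0.0348 (0.0669). Intervals on that scale were not counted. The median spread of replicates was 0.13 (SD within groups, log2) over the 7 bright peptides and 0.10 over all 298. With 2 arrays against 2, the smallest two-sided p an exact permutation test allows is 0.333. The p-values rest on the spread between replicate arrays of 2 experiments, pooled over the groups and moderated towards the spread of all peptides.

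**Figure D4:**
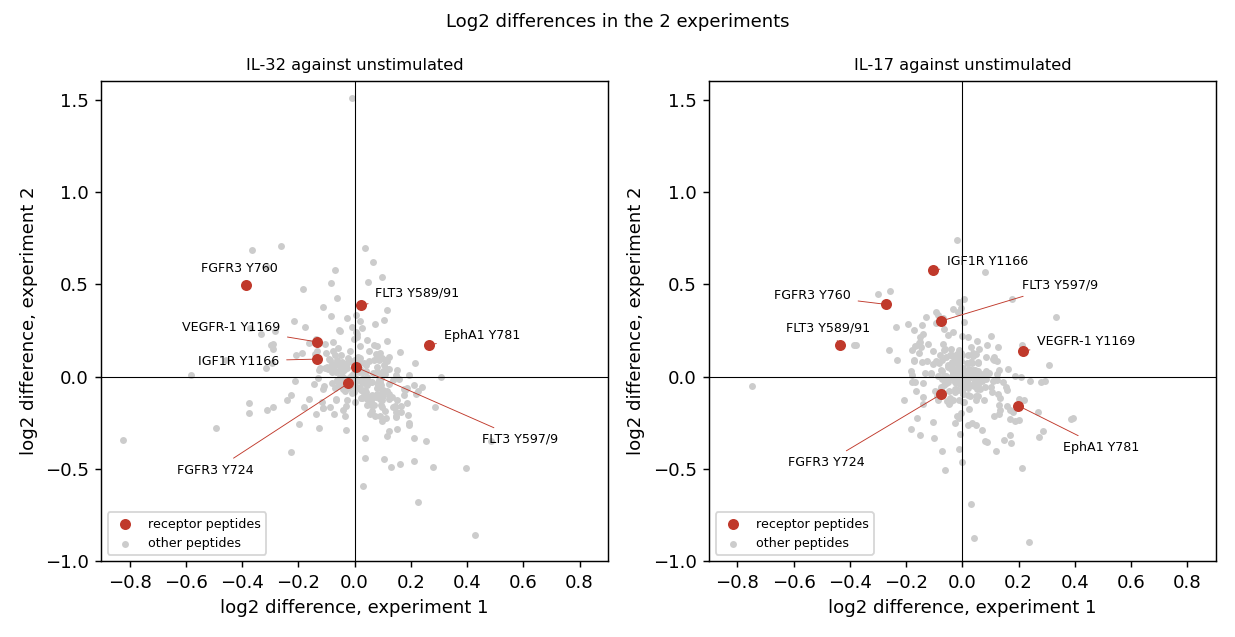
Log2 difference from unstimulated cells in experiment 2 against that in experiment 1 for the other peptides (grey) and the 7 bright receptor peptides (red, named), with IL-32 on the left and IL-17 on the right. EphA1 Y781 and both FLT3 peptides lie above 0 on both axes with IL-32 and VEGFR-1 Y1169 with IL-17, while FGFR3 Y760 lies at -0.39 and 0.50 with IL-32.

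Quantile normalization removes any shift that all peptides of an array share, and the differences above leave it out. Without normalization between arrays the median peptide was 0.59 lower on the log2 scale with IL-17 than in unstimulated cells (median log2 difference -0.59) and 0.24 lower with IL-32 (-0.24). A peptide with no spot above background, Crk Y221, was lower too. It read 10.67 and 10.96 with IL-17 and 11.31 and 11.32 in unstimulated cells. Raw median foreground was 19308.5 and 24060.5 on the IL-17 arrays and 25672 and 24633.5 on the unstimulated arrays. The cause of the shift was not tested. All 9 receptor peptides then passed as lower with IL-17, as did 293 of the 298, and 0 of 9 passed with IL-32. The Kit peptides are among the 9 although they are below background, so the count is not particular to receptors with signal. The median of the bright receptor peptides lay 0.0072 below the median of all peptides with IL-17 (-0.0072), 0.055 above it with IL-32, and 0.17 above it between IL-32 and IL-17 (0.53 against 0.36). Between the cytokines FLT3 Y589/91 was 1 of 4 peptides that passed without normalization, at 0.86 with a limma adjusted p of 0.042, where the median of all peptides was 0.36.

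No other receptor tyrosine kinase on the array passed. The list held 18 peptides of CSFR, EphA2, FGFR1, FGFR4, Met, PDGFRb, TrkB, TrkC, VEGFR-2 and VEGFR3. With IL-32, 7 were higher and 11 lower (median log2 difference -0.022), with IL-17 also 7 and 11 (median -0.013), and 0 of 18 passed in either. The 4 with the smallest unadjusted p against unstimulated cells were FGFR4 Y754, from a fibroblast growth factor receptor, at -0.12 ± 0.094 for IL-32, the ephrin receptor peptide EphA2 Y588 at -0.13 ± 0.13 for IL-17, FGFR1 Y463, a docking tyrosine of another fibroblast growth factor receptor, at 0.14 ± 0.13 for IL-17, and EphA2 Y594 at -0.16 ± 0.16 for IL-32. The experiments differed in sign for 3 of these, with 0.087 and -0.36 for EphA2 Y588, 0.29 and -0.022 for FGFR1 Y463 and 0.16 and -0.47 for EphA2 Y594; FGFR4 Y754 gave -0.21 and -0.024.

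Of 12 peptides from adaptors and effectors that bind activated receptors, 7 were higher with IL-32 (median 0.012) and 9 with IL-17 (median 0.019). Under the same settings 0 of 12 passed. Only 6 of the 12 had all 18 spots above background, and Crk Y221 had none. Cbl Y371, from the ubiquitin ligase that removes activated receptors from the surface, had the smallest p, with -0.23 ± 0.097 for IL-32, at -0.29 and -0.17 in the 2 experiments (limma, adjusted p = 0.996). PLCG1 Y771 and Y472, from phospholipase C gamma, the enzyme that docks on the VEGFR-1 and FGFR3 tail sites, gave -0.12 ± 0.10 for IL-17 and 0.12 ± 0.10 for IL-32. The Y472 peptide was dim: on the unstimulated array of experiment 2 its mean foreground was 0.947 of background with 1 of 3 spots above it, and the difference was 0.0077 in experiment 1 and 0.23 in experiment 2, so its size is uncertain. The adaptor Shc1 at Y349/0, which links receptors to Ras, gave 0.10 ± 0.12 for IL-17.

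For each receptor the peptide with the largest range over the arrays was set against the 181 peptides of other proteins whose mean foreground exceeded mean background on all 6 arrays, by the root mean square difference of mean-centred log2 levels over 6 arrays. The profile closest to FLT3 Y589/91 was that of CD45 S999/02/03, from a leukocyte phosphatase, at 0.094. Closest to FGFR3 Y760 was FRS2 Y436, from an adaptor of fibroblast growth factor receptors, at 0.10. Both peptides had their unstimulated arrays as highest and lowest, for FRS2 Y436 at 12.10 and 11.52 in experiments 1 and 2. The likeness thus includes a gap between replicates, and a link between the proteins was not tested. IGF1R Y1166 was closest to the translation repressor 4E-BP1 at T37 (0.090), VEGFR-1 Y1169 to the interferon regulatory factor IRF-5 at S437 (0.065) and EphA1 Y781 to the interleukin-10 receptor subunit IL-10R-A at Y496 (0.070). Gaps between replicates made up much of the range over the arrays in these profiles too. The largest gap was 0.42 of 0.455 for FLT3 Y589/91 (unstimulated) and 0.37 of 0.575 for IGF1R Y1166 (IL-17). It was 0.23 of 0.37 for VEGFR-1 Y1169 (IL-17) and 0.28 of 0.34 for EphA1 Y781 (IL-17). The distances are descriptions over 6 arrays, with no test. Kit had no peptide above background on all 6 arrays.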

How the data were processed

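The deposited array files give intensities per the file headers, the mean foreground and mean local background of each spot at 532 nm, neither subtracted nor normalized. The authors' deposited table of processed signal equals mean foreground minus background over the 3 spots, times 1 constant per array and floored at 0.01, as a comparison with the intensities showed; the basis of the constant, the scanner and the image software were not found (not given in the sources used here). Groups came from the sample titles.

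The normexp method of limma (offset 50) corrected background, 2 non-human peptides were dropped, spots were quantile-normalized on the log2 scale, and 3 spots were averaged. limma 3.58.1 (R 4.3.3) fitted all 6 arrays without a block (3 residual and 2.82 prior degrees of freedom), with Benjamini-Hochberg adjustment over 298 peptides; the code was tested on simulated data. The titles number biological replicates and the design text names 2 independent experiments; the number was taken as the experiment, which no label states. Deviations of same-numbered arrays correlated over peptides at 0.39 (IL-32 and IL-17), 0.022 (IL-32 and unstimulated) and 0.18 (IL-17 and unstimulated). The number of arrays limits the precision. All 6 receptor names matched a symbol or synonym in the RefSeq gene table (GRCh38.p14), used for names only. An FRS3 peptide carries the listed accession of FRS2.

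All member peptides are named; of the 2 other lists, up to 4 with the smallest unadjusted p against unstimulated cells. Members and lists were chosen with earlier results of these data known. Alternatives were the background correction, normalization, spot summary, dim-peptide filter, block, groups fitted, deposited table, arrays left out and, added after seeing the data, single spots.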

Additional observations from a re-analysis of the deposited data

How the results depend on the processing

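No receptor difference was called under the main settings, and the directions were not stable: of the 21 receptor differences with a fold, 0 kept their direction in every alternative, and 1, IGF1R Y1166 for IL-32 against IL-17, kept it in all but no normalization. The cause of each change was not tested. Values below are log2 differences. With the replicate block, 8 (IL-32), 4 (IL-17) and 10 (IL-32 against IL-17) of 298 peptides had an unadjusted p under 0.05 in limma, against 4, 0 and 4 without it. The block changed no adjusted call. In this balanced design it cannot change a fitted difference, only its standard error. At an unadjusted p under 0.05, limma counted 0 receptor peptides under the main settings but 1 for IL-32 and 1 for IL-17 in the deposited table (FGFR3 Y724 in both), 1 for IL-32 (EphA1) and 1 between the cytokines (FLT3 Y589/91) when only the groups compared were fitted, and 1 to 9 in some comparisons with plain subtraction, median scaling, no normalization, single spots or an array left out. Leaving out dim peptides kept 188, with no values for Kit.

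Peptides at the study's fold and p criteria (0 in each comparison under the main settings) were, for IL-32, 1 with normexp offset 10, 10 without background subtraction, 3 with plain subtraction, 3 without normalization, 3 in the deposited table, 2 from first spots and 2 from second spots. For IL-17 they were 1 without background subtraction, 4 with plain subtraction, 153 without normalization, 1 in the deposited table and 2 from second spots. Between the cytokines they were 8 without background subtraction, 4 with plain subtraction, 17 without normalization, 3 in the deposited table, and 1, 5 and 3 from the first, the second and the third spot. Adjusted calls were 1 of 298 with plain subtraction between the cytokines. Without normalization they were 293 for IL-17, 9 of them receptor peptides (the Kit peptides below background included), and 4 between the cytokines, 1 of them FLT3 Y589/91.

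The median of the receptor peptides for IL-32 was -0.0331 for foreground divided by background, -0.217 without normalization, -0.0617 with the median of spots and -0.0708 from second spots. For IL-17 it was -0.0472 without background subtraction, 0.0961 with plain subtraction, -0.0198 with median scaling, -0.594 without normalization, -0.0598 from second spots and 0.0789 from the third spot. Between the cytokines it was 0.091 without background subtraction, 0.071 with median scaling, 0.41 without normalization, 0 in the deposited table and -0.041 from second spots. These medians include the Kit peptides. In the deposited table both Kit peptides sit at the floor of 0.01 on every array, so their differences there are 0 by construction.

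Direction reversed as follows. No background subtraction gave IGF1R 0.0459 and VEGFR-1 -0.0404 for IL-32, EphA1 -0.169, FGFR3 Y760 -0.047 and VEGFR-1 -0.069 for IL-17, and FGFR3 Y760 0.092, FLT3 Y597/9 0.21 and VEGFR-1 0.029 between cytokines. Dividing by background gave, for IL-32, FGFR3 Y724 0.0061, FLT3 Y589/91 -0.0331 and FLT3 Y597/9 -0.111, and for FGFR3 Y760 -0.012 with IL-17 and 0.018 between cytokines. Median scaling gave IGF1R 0.0138 for IL-32, EphA1 -0.0457, FGFR3 Y760 -0.02 and FLT3 Y597/9 -0.02 for IL-17, and FGFR3 Y760 0.27 and FLT3 Y597/9 0.071 between cytokines. Without normalization EphA1 was -0.00412, FLT3 Y597/9 -0.18 and VEGFR-1 -0.217 for IL-32, EphA1 -0.62, FGFR3 Y760 -0.59, FLT3 Y597/9 -0.59, IGF1R -0.49 and VEGFR-1 -0.51 for IL-17, and FGFR3 Y760 0.61, FLT3 Y597/9 0.41, IGF1R 0.27 and VEGFR-1 0.30 between cytokines. The deposited table gave VEGFR-1 -0.0307 for IL-32 and EphA1 -0.022 for IL-17. The median of spots gave EphA1 -0.0238, FGFR3 Y724 0.0242, FGFR3 Y760 -0.0985 and FLT3 Y597/9 -0.0617 for IL-32, EphA1 -0.00548, FGFR3 Y760 -0.09 and IGF1R -0.031 for IL-17, and EphA1 -0.018 between cytokines.

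Single spots were an alternative chosen after seeing the data, with each spot position quantile-normalized by itself. First spots gave EphA1 -0.0992 and VEGFR-1 -0.395 for IL-32, EphA1 -0.0601, FLT3 Y589/91 0.0299 and VEGFR-1 -0.19 for IL-17, and EphA1 -0.039, FGFR3 Y724 -0.093 and FLT3 Y597/9 0.20 between cytokines. Second spots gave FLT3 Y589/91 -0.214, FLT3 Y597/9 -0.187 and IGF1R 0.036 for IL-32, EphA1 -0.091 and FGFR3 Y760 -0.18 for IL-17, and FGFR3 Y760 0.29, FLT3 Y589/91 -0.041 and VEGFR-1 0.17 between cytokines. The third spot gave EphA1 -0.0777, FGFR3 Y724 0.0691 and VEGFR-1 -0.0436 for IL-32, FGFR3 Y724 0.077 and IGF1R -0.021 for IL-17, and EphA1 -0.41, FGFR3 Y724 -0.0083 and FGFR3 Y760 0.11 between cytokines.

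Leaving out each array in turn, where the lone array of a group is taken to vary like the others, gave 1 to 3 peptides at the study's criteria for IL-32, 0 to 2 for IL-17 and 0 to 1 between the cytokines, and no adjusted call. The receptor median ranged from -0.046 (without unstimulated replicate 2) to 0.11 (without unstimulated replicate 1) for IL-32, from 0.019 to 0.078 (without unstimulated replicate 1) for IL-17, and from -0.082 to -0.033 (without IL-17 replicate 1) between cytokines. Ranges that crossed 0 for IL-32 were -0.29 to 0.44 for FGFR3 Y760, -0.0067 to 0.42 for FLT3 Y589/91, -0.022 to 0.074 for FLT3 Y597/9, -0.17 to 0.14 for IGF1R and -0.055 to 0.11 for VEGFR-1. For IL-17 they were -0.12 to 0.17 for EphA1, -0.28 to 0.44 for FGFR3 Y760, -0.33 to 0.078 for FLT3 Y589/91 and -0.031 to 0.26 for FLT3 Y597/9. Between cytokines they were -0.082 to 0.077 for FGFR3 Y760 and -0.23 to 0.0599 for FLT3 Y597/9. Other values that moved by over 1.5 times were, for IL-17, IGF1R (0.0499 without IL-17 replicate 2 to 0.428 without IL-17 replicate 1) and VEGFR-1 (0.0625 without IL-17 replicate 1 to 0.307 without IL-17 replicate 2), and between cytokines EphA1 (0.0556 to 0.343), IGF1R (-0.447 to -0.0704) and VEGFR-1 (-0.279 to -0.0333). Signal near background limits the dim peptides, Kit included.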
